A study of Capra hircus with 9 samples.

Results

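Calcium handling in the mammary gland was followed through 10 genes of calcium channels, pumps, sensors and one hormone, TRPV6, TRPV5, ATP2B1, ATP2B2, ATP2C1, ATP2C2, STIM1, ORAI1, CASR and PTHLH, which were taken by symbol from the 23499 genes of the deposited table. All 10 symbols were found. The values come from bulk mammary gland tissue taken at slaughter from 9 Laoshan dairy goats, a Chinese dairy breed, all healthy, of the third parity and on average 4 years old, with each library made from 1 goat. Late lactation (LL) was sampled at 240 days postpartum (n = 3), the dry period (DP) at 300 days postpartum (n = 3) and late gestation (LG) at 140 days after mating (n = 3). In bulk tissue, fewer cells of a type and less RNA per cell cannot be told apart, and this holds for every gene below.

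Milk is rich in calcium, and the lactating epithelium has to move it from blood to milk while keeping it low inside the cell. Channels of the plasma membrane let calcium in, STIM and ORAI proteins admit it when the stores of the endoplasmic reticulum run low, pumps of the plasma membrane expel it, and pumps of the Golgi load it, with manganese, into the secretory pathway where casein is packed. The calcium-sensing receptor reads calcium outside the cell, and the lactating gland secretes parathyroid hormone-related protein, which mobilises calcium from bone.

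Levels are given in FPKM, which are fragments per length of gene and per depth of library, so that genes can be set beside each other within a library. The level of a gene across stages depends on the scaling between libraries. The scaling factors, computed as the median ratio over 15905 genes, ran from 0.498 to 0.605 for the LL libraries, from 1.44 to 1.53 for DP and from 1.198 to 1.31 for LG. Left out, they moved the median log2 fold change of the genes tested to 1.09 for DP against LL, 0.93 for LG against LL and -0.18 for LG against DP. Differences were therefore tested after scaling, as log2 fold changes of (FPKM + 1), with limma over the 14701 genes that reached 0.5 FPKM in at least 3 libraries. This scale understates the change of low genes. Genes counted as called when p, adjusted by Benjamini-Hochberg, was under 0.05 and the log2 fold change was 1 or more in either direction.

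The tissue was checked against marker genes. The milk protein markers CSN2 and LALBA summed to 131519, 131275 and 99068.1 FPKM in the LL libraries, to 37.9, 21.4 and 51.6 in DP and to 4929.6, 6533.6 and 5049.1 in LG, and CSN2 was the more abundant. All 8 luminal epithelial markers were detected in every library, with sums of 554 to 655 FPKM in LL, 572 to 981 in DP, and 1047 to 1362 FPKM in LG, and ELF5 was the most abundant of them in the LL and LG libraries, KRT19 in DP. After scaling these sums were 929 to 1185 for LL, 374 to 680 for DP and 874 to 1037 for LG, so that every DP library was then below every LL library. ELF5 was the only one of the 8 called in DP against LL (-4.19), and without it the scaled sums were 440 to 509 for LL and 348 to 636 for DP and overlapped. Of the other markers, EPCAM (-0.74), CDH1 (-0.48), KRT19 (-0.40) and CLDN4 (-0.18) had lower log2 levels in DP than in LL, and KRT8 (0.28), KRT18 (0.60) and KRT7 (0.86) had higher ones. Of the 5 skeletal muscle markers, 2 were matched, and their sum was at most 0.19 FPKM in any library. These markers are those of mammary epithelium, with the milk proteins highest in LL.

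Sums of the stromal and blood cell markers are given in FPKM first and after scaling below. The 6 fibroblast markers, of which COL3A1 was the most abundant by its mean and DCN in the LL libraries and in DP1 and DP2, summed to 105, 125 and 196 FPKM in LL, to 768, 1305.9 and 3443 in DP and to 624, 1177 and 867 in LG. The 6 leukocyte markers, of which CSF1R was the most abundant by its mean and PTPRC in DP1, DP2 and LG2, summed to 13.25 to 17.8 FPKM in LL, to 151, 93.85 and 72.2 in DP and to 28.3 to 35.9 in LG. DP3 was thus the library with the highest fibroblast sum, and DP1 had the highest leukocyte sum. DP1 also had the highest sum of the 4 adipocyte markers, 31.1 FPKM, led by ADIPOQ and against 3.71 and 4.32 in DP2 and DP3, and LEP was at 0 in all LL libraries. The 6 basal and myoepithelial markers, led by KRT5 except in DP3, where ACTA2 was higher, summed to 89.6, 129.6 and 140.0 FPKM in LL, to 208, 653 and 500.1 in DP and to 269, 333 and 399 in LG. Their sum was highest in DP2. The 4 endothelial markers, led by PECAM1, summed to 49.0 to 72.9 FPKM in LL, to 164, 153 and 218 in DP and to 65.9 to 102 in LG. After scaling, the fibroblast sum was still above LL in every DP and LG library, but in LG only through the collagens, since the sum of PDGFRA, DCN and LUM was 100.4 to 155 in LL and 92.7 to 123 in LG, with PDGFRA at -0.76 in LG against LL (adjusted p = 0.0109). The scaled leukocyte sum was 24.0 to 29.3 for LL, 50.2 to 99.1 for DP and 21.5 to 29.1 for LG, so that LG and LL overlapped. The scaled endothelial sum was 90.1 to 120.4 for LL, 106 to 152 for DP and 55.0 to 77.8 for LG, which put LG below LL and let LL and DP overlap. Its markers went different ways in LG against LL. PECAM1, the most abundant, was lower (-0.91, adjusted p = 0.00553 by limma) and KDR was higher (0.70, adjusted p = 0.00556), with CDH5 at -0.05 and VWF at -0.35. The scaled basal sums of LL overlapped with those of DP and LG.

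Of the 10 genes, 9 passed the filter and were tested. In DP against LL, 2 were called higher, where 13.8% of all genes tested were, and 4 were called lower, where 8.79% were. In LG against LL, 0 were called higher (10.7% of all genes) and 4 lower (6.61%). LG against DP gave 2 called higher (6.37% of all genes) and 2 lower (6.88%). TRPV5 is 1 of the 2 called higher in DP against LL and 1 of the 2 called lower in LG against DP. It passed the filter through DP alone, so the direction of these calls was set by the filter and they give little support. Without the filter TRPV5 was also called in both, with limma (adjusted p = 0.005 and 0.00674). By the adjusted p alone, 7, 6 and 5 of the 9 passed in these comparisons, as did 56.9%, 50.2% and 34.8% of all genes tested. After scaling, the libraries of the stages did not overlap for 7 of the 9 genes between DP and LL, 6 between LG and LL and 5 between LG and DP, and this was so for 65.9%, 61.1% and 47.9% of all genes tested. The median log2 fold changes of the 9 genes were -0.11, -0.95 and 0.04 in these comparisons, against 0.00, 0.02 and 0.01 over all genes tested. Without scaling the split of the calls moved to 4 higher and 3 lower in DP against LL (54.3% and 2.51% of all genes) and to 2 higher and 1 lower in LG against LL (45.6% and 2.35%), and stayed at 2 and 2 in LG against DP (4.86% and 10.7%). The comparisons share libraries and are not independent of each other.

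**Figure D1:**
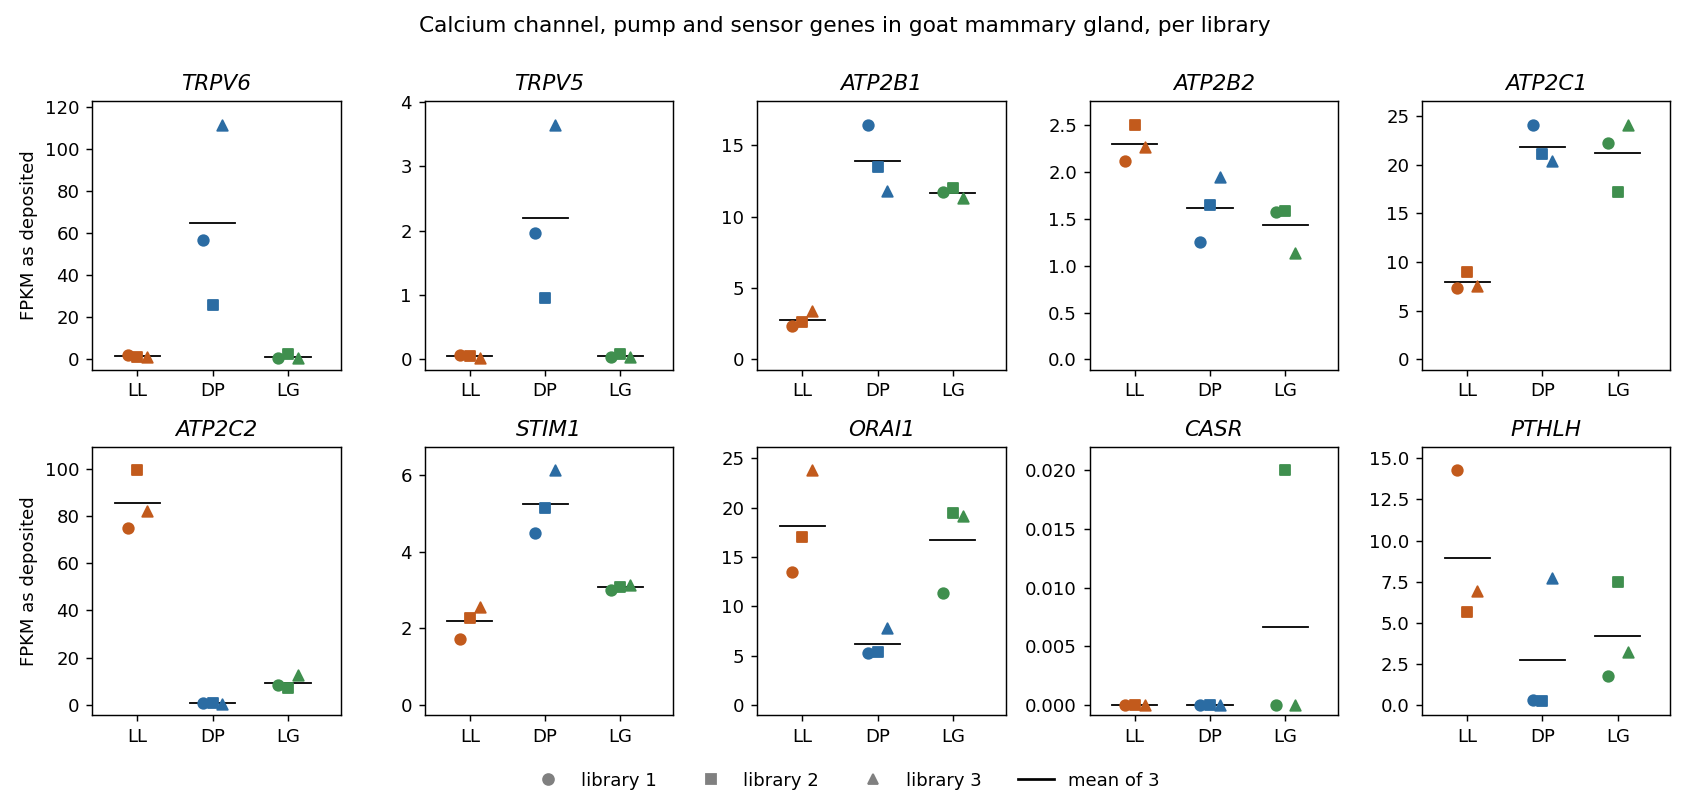
Level of each of the 10 genes in FPKM as deposited (vertical axes, linear, with a range of their own for each gene) in LL, DP and LG, with symbols for libraries 1 to 3 of a stage, each from another goat, and lines for the mean of 3. TRPV6 and TRPV5 were high in DP alone, at up to 112 and 3.65 FPKM, and ATP2C2 was highest in LL, at up to 99.4 FPKM.

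Calcium entry was led, in DP, by TRPV6 (gene ID 102180651, chromosome 4, 14425410 to 14442209; the table names no genome build for its coordinates). TRPV6 encodes a calcium-selective channel of epithelial plasma membranes. Its level was 2.25, 0.99 and 1.16 FPKM in LL1, LL2 and LL3, 56.6, 26.0 and 112 FPKM in DP1, DP2 and DP3, and 0.57, 2.51 and 0.53 FPKM in LG1, LG2 and LG3. Every DP library was above every LL and LG library, and the LL and LG libraries overlapped. The mean was 64.7 ± 43.4 FPKM in DP, against 1.47 ± 0.684 in LL and 1.203 ± 1.13 in LG (SD, n = 3 each). The log2 fold change was 3.44 in DP against LL (95% confidence interval 2.31 to 4.56, adjusted p = 0.000391) and -4.38 in LG against DP (adjusted p = 0.000266). No call was made in LG against LL, at -0.95 (95% confidence interval -2.07 to 0.18, adjusted p = 0.143). These directions were the same without scaling and with quantile normalization. In LG against LL the value was -0.24 without scaling and -1.61 with a pseudocount of 0.1, and it was called in neither.

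TRPV6 also varied widely among the DP goats. Its value in DP3 was 4.29 times that in DP2, and DP1 lay between them. The SD of its log2 level over the 3 DP libraries was 1.02, against a median of 0.181 over all genes tested, and 98.1% of the 14701 genes had a smaller SD. Leaving out 1 DP library gave an SD of 0.71 without DP3, 0.74 without DP2 and 1.45 without DP1. The spread was not limited to DP, since the SD of TRPV6 was 0.55 in LL and 0.62 in LG, where 96.5% and 96.7% of genes had a smaller one. With DP3 left out, the log2 fold change of TRPV6 in DP against LL was 2.90, and with DP2 left out it was 3.92, and it was called in both. Of the marker sums above, those of the milk protein and of the endothelial markers had the same order among the DP libraries as TRPV6, DP3 over DP1 over DP2. The luminal epithelial sum was highest in DP2. Single markers of these sums differed, since CSN2, CDH5 and VWF had the order of TRPV6 and LALBA, PECAM1 and KDR did not. PECAM1 had 91.7, 113.85 and 113.2 FPKM in DP1, DP2 and DP3, and KDR had 16.99, 10.96 and 11.66. The part of these markers in the spread of TRPV6 was not tested.

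TRPV5 (gene ID 102180917, chromosome 4, 14378996 to 14408990), the channel most closely related to TRPV6 and its neighbour on the same strand, 16419 bases away, was much lower. It had 0.07, 0.06 and 0.02 FPKM in the LL libraries, 1.97, 0.96 and 3.65 FPKM in DP1, DP2 and DP3, and 0.04, 0.08 and 0.04 FPKM in LG. Only the DP libraries passed the filter, so a tested TRPV5 had to be higher in DP, and its log2 fold changes of 1.12 in DP against LL and -1.19 in LG against DP support nothing further. It was no longer called in DP against LL with quantile normalization, at 0.97, or with the fixed amounts described below taken off the genes that reach them, at 0.98, and had too few libraries to be tested when any DP library was left out or the filter was set at 2 FPKM. In LG against LL its log2 fold change was -0.07 (95% confidence interval -0.60 to 0.46) and it was 0.00 without scaling. In DP1, DP2 and DP3 the level of TRPV5 was 3.48%, 3.69% and 3.27% of that of TRPV6, and the share was 1.72% to 6.06% in LL and 3.19% to 7.55% in LG, where both genes were low. Reads of such related genes can be assigned to the wrong copy, and how they were treated is not given in the sources used here, so the level of TRPV5 is uncertain. On the other side of TRPV6, 87 bases away and on the opposite strand, lies EPHB6, which was chosen after its values were seen. It had 0.06 to 0.09 FPKM in LL, 12.1, 6.83 and 7.55 in DP1, DP2 and DP3 and 0.53, 3.31 and 1.11 in LG1, LG2 and LG3. EPHB6 was thus also highest in DP, but in DP1 and not in DP3.

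Store-operated entry rests on the sensor STIM1 (gene ID 102189695, chromosome 15, 32117471 to 32313714) and the channel ORAI1 (gene ID 102171809, chromosome 17, 17607788 to 17623025). ORAI1 had 13.4, 17.1 and 23.8 FPKM in LL1, LL2 and LL3, 5.31, 5.38 and 7.83 in DP1, DP2 and DP3, and 11.4, 19.5 and 19.15 in LG1, LG2 and LG3. All DP libraries were below all others, and the LL and LG libraries overlapped in FPKM but not after scaling. ORAI1 was called lower in DP than in LL at -2.68 (log2, standard error 0.224, adjusted p = 1.55e-05), and also without scaling, at -1.39. It was called higher in LG against DP at 1.44 (adjusted p = 0.001197). In LG against LL it was called lower at -1.24 (adjusted p = 0.00174), but without scaling this value was -0.11 (adjusted p = 0.708) and was not called.

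STIM1, the calcium sensor of the endoplasmic reticulum that opens ORAI1, had 1.73, 2.27 and 2.57 FPKM in LL1, LL2 and LL3, 4.49, 5.15 and 6.13 in DP1, DP2 and DP3, and 3.01, 3.08 and 3.12 in LG1, LG2 and LG3. In FPKM the stages did not overlap, with DP highest and LL lowest. After scaling this order was not found. The log2 fold change was -0.11 in DP against LL (95% confidence interval -0.40 to 0.17, adjusted p = 0.467), where it was 0.97 without scaling, and -0.51 in LG against LL (adjusted p = 0.00874), where it was 0.36 without scaling. In LG against DP it was -0.40 (adjusted p = 0.0373), and STIM1 was called in no comparison. Within a library, the scaling does not matter, and the ratio of ORAI1 to STIM1 was 7.52 to 9.26 for LL, 1.04 to 1.28 for DP and 3.78 to 6.33 for LG. The ranges of this ratio did not overlap between the stages.

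The pumps of the Golgi changed places between the stages. ATP2C2 (gene ID 102185946, chromosome 18, 12000229 to 12079250) encodes a calcium and manganese pump of secretory epithelia. Its level was 75.1, 99.4 and 82.1 FPKM in LL1, LL2 and LL3, 0.94, 1.03 and 0.51 FPKM in DP1, DP2 and DP3, and 8.68, 7.35 and 12.5 FPKM in LG1, LG2 and LG3. The 3 stages did not overlap, with LL highest, LG between and DP lowest. The log2 level of ATP2C2 fell by 6.64 from LL to DP (standard error 0.183, adjusted p = 2.57e-08) and was 4.20 below LL in LG (adjusted p = 1.18e-06), which put LG above DP by 2.44 (adjusted p = 4.04e-05). It was called in the same direction in each comparison under every alternative tried, and the value for DP against LL was -5.57 without scaling.

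Annotated genes on the opposite strand overlap ATP2C2, and the library kit named by the submitters does not mark strand. TLDC1 overlaps its end and had 2.15, 2.6 and 2.4 FPKM in LL, 3.99 to 4.80 in DP, and 2.78 to 3.95 FPKM in LG. LOC108637956 lies within ATP2C2 and had 5.24 to 7.14 FPKM in LL, 0.57 to 0.99 in DP, and 0.96 to 1.93 FPKM in LG. TLDC1 was lowest in LL in FPKM but highest in LL after scaling, at 3.96 to 4.70 against 2.77 to 3.14 in DP and 2.12 to 3.202 in LG. LOC108637956 was highest in LL either way, and both were far below ATP2C2 in the LL libraries. In DP, ATP2C2 had 0.94, 1.03 and 0.51 FPKM in DP1, DP2 and DP3. TLDC1 was above it in each of these libraries, and LOC108637956 was close to it, at 0.86, 0.99 and 0.57. The part of both genes in the values of ATP2C2, and in its ratio to ATP2C1 given below, was not tested.

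ATP2C1 (gene ID 102176274, chromosome 1, 138497975 to 138651086), the Golgi pump found in most tissues, had 7.33, 8.97 and 7.52 FPKM in LL1, LL2 and LL3, 24.1, 21.05 and 20.4 in DP1, DP2 and DP3, and 22.2, 17.2 and 24.1 in LG1, LG2 and LG3. In FPKM all LL libraries were below all DP and LG libraries, and after scaling LL and DP overlapped. The log2 fold change was 0.04 in DP against LL (95% confidence interval -0.30 to 0.39, adjusted p = 0.829), but 1.35 and called without scaling. In LG against LL it was 0.21 (-0.14 to 0.56, adjusted p = 0.284), but 1.30 and called without scaling. In LG against DP it was 0.17 (-0.18 to 0.51, adjusted p = 0.425), and it was -0.05 without scaling and -0.03 with quantile normalization. Whether ATP2C1 differed between the stages therefore depends on the scaling.

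The ratio of the Golgi pumps within a library is free of that choice. The level of ATP2C2 over that of ATP2C1 was 10.2, 11.1 and 10.9 in LL1, LL2 and LL3, 0.0390, 0.0489 and 0.0250 in DP1, DP2 and DP3, and 0.392, 0.428 and 0.520 in LG1, LG2 and LG3. ATP2C2 was thus the more abundant Golgi pump in every LL library, and ATP2C1 in every DP and LG library. In DP the level of ATP2C1 was 20.4 to 39.9 times that of ATP2C2.

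Pumps of the plasma membrane expel calcium. ATP2B1 (gene ID 102174093, chromosome 5, 19246076 to 19379946), the form found in most cells, had 2.33, 2.62 and 3.41 FPKM in LL1, LL2 and LL3, 16.45, 13.5 and 11.8 in DP1, DP2 and DP3, and 11.7, 11.98 and 11.3 in LG1, LG2 and LG3. All LL libraries were below all others, in FPKM and after scaling. The log2 fold change was 0.79 in DP against LL (standard error 0.132, adjusted p = 0.000884) and 0.79 in LG against LL (adjusted p = 0.00115), below the size needed for a call. Without scaling these values were 1.98 and 1.75 and both were called. In LG against DP it was -0.01 (95% confidence interval -0.30 to 0.29).

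ATP2B2 (gene ID 102187815, chromosome 22, 54356621 to 54735433), known as the pump of the apical membrane of the lactating epithelium, had 2.12, 2.51 and 2.27 FPKM in LL1, LL2 and LL3, 1.26, 1.65 and 1.95 in DP1, DP2 and DP3, and 1.58, 1.59 and 1.14 in LG1, LG2 and LG3. All LL libraries were above all others, and DP and LG overlapped. ATP2B2 was called lower in DP than in LL, at -1.30 (log2, standard error 0.140, adjusted p = 6.21e-05), and lower in LG than in LL, at -1.27 (adjusted p = 0.000102). Without scaling these values were -0.34 (adjusted p = 0.0455) and -0.44 (adjusted p = 0.0167) and were not called. In LG against DP it was 0.04 (95% confidence interval -0.28 to 0.35), and -0.10 without scaling. The level of ATP2B1 was 1.04 to 1.502 times that of ATP2B2 in LL, 6.05 to 13.1 times in DP and 7.41 to 9.92 times in LG.

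A property of the deposited table bears on ATP2B2. Values gather at and just above one amount in each library, clearly in LL and less so in DP and LG, at 1.0, 1.3 and 1.5 FPKM in LL1, LL2 and LL3, at 1.0, 1.5 and 1.5 in DP1, DP2 and DP3, and at 1.5, 1.2 and 1.0 in LG1, LG2 and LG3. In LL2, 531 genes lay from 1.3 to less than 0.1 FPKM above it and 173 within 0.1 below it, with 414 against 110 at the amount of LL1 and 334 against 170 at that of LL3. These counts were 103 against 93, 117 against 87 and 96 against 79 in DP1, DP2 and DP3, and 172 against 128, 154 against 94 and 123 against 64 in LG1, LG2 and LG3, where the excess was smaller. IHH, picked for this pattern, stands exactly at the amounts in all 6 DP and LG libraries and exceeds them by 0.69, 1.37 and 0.61 FPKM in LL1, LL2 and LL3. ATP2B2 exceeded the amounts by 1.12, 1.21 and 0.77 FPKM in LL1, LL2 and LL3, by 0.26, 0.15 and 0.45 in DP1, DP2 and DP3 and by 0.08, 0.39 and 0.14 in LG1, LG2 and LG3, so that the amounts equal 47.2% to 66.1% of its level in LL and 75.5% to 94.9% in DP and LG. Whether ATP2B2 carries them was not tested. With the amounts taken off ATP2B2 alone, an alternative chosen after seeing the data, it was called lower at -1.26 in DP against LL (adjusted p = 0.000261) and -1.31 in LG against LL (adjusted p = 0.000291). With the amounts taken off every gene that reached them in all 9 libraries, it was called at -1.50 (adjusted p = 6.58e-05) and -1.53 (adjusted p = 9.04e-05). How far these calls depend on the amounts was not tested further. Of the 10 genes, 5 are below the amounts in at least 1 library, TRPV6, TRPV5, ATP2C2, CASR and PTHLH. With the amounts taken off both genes, ATP2B1 was 1.09 to 2.48 times ATP2B2 in LL, 22.9 to 80.1 times in DP and 27.6 to 127.5 times in LG, and ORAI1 was 16.2 to 20.8 times STIM1 in LL, 1.06 to 1.37 times in DP and 6.55 to 9.73 times in LG, so that the sizes of both ratios depend on the amounts. Whether ATP2B1, ATP2C1, STIM1 and ORAI1 carry them was not tested either, and with the amounts taken off every gene that reached them in all 9 libraries, the log2 fold change of STIM1 in DP against LL was 0.11 and that of ATP2C1 was -0.29.

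**Figure D2:**
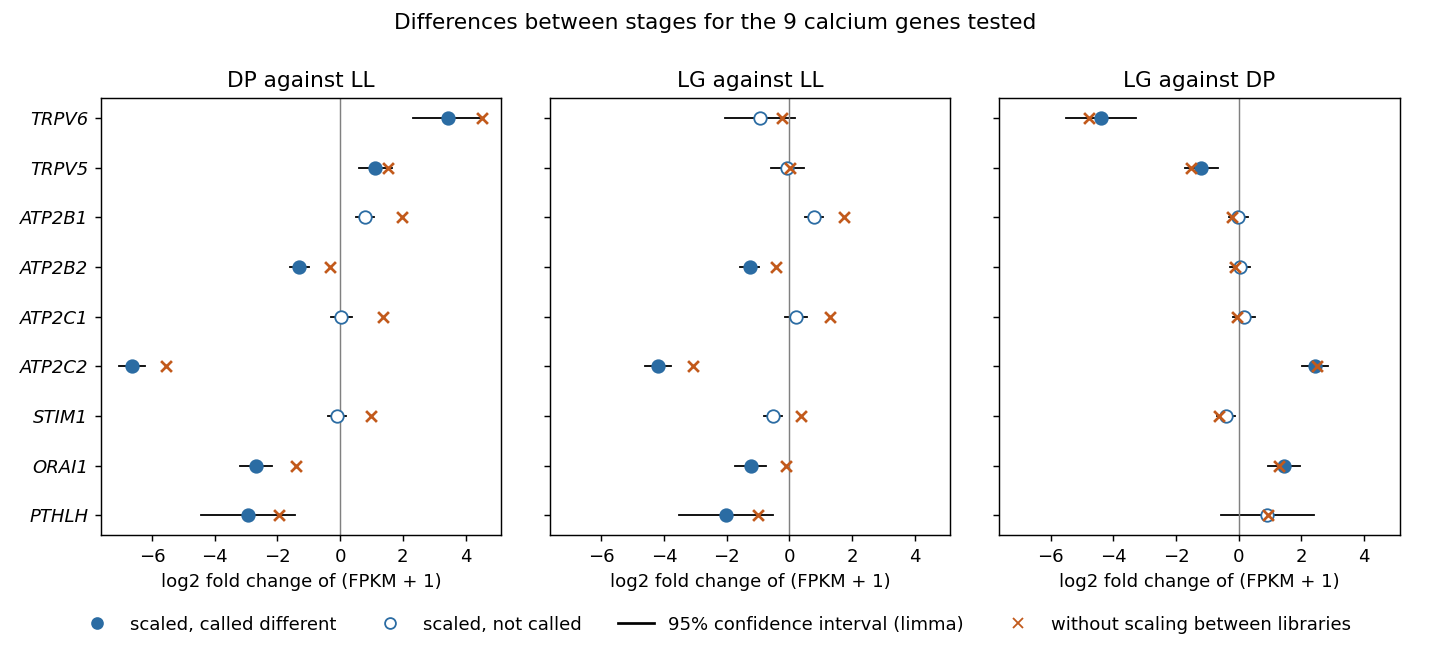
Log2 fold change of (FPKM + 1) for the 9 genes tested in each comparison, with filled circles for genes called different, open circles for genes not called, lines for the 95% confidence interval of limma, and crosses for the value without scaling between libraries. In DP against LL, ATP2C2 lies lowest at -6.64 and TRPV6 highest at 3.44, and STIM1 changes sign between the circle (-0.11) and the cross (0.97).

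The calcium-sensing receptor gene CASR (gene ID 102185783, chromosome 1, 66373773 to 66404334) was listed at 0 in 8 libraries and at 0.02 FPKM in LG2. It did not pass the filter and was not tested. How many reads such a value allows is unknown, since FPKM hold no counts.

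PTHLH (gene ID 100860907, chromosome 5, 80443978 to 80458624), which encodes parathyroid hormone-related protein, had 14.3, 5.67 and 6.91 FPKM in LL1, LL2 and LL3, 0.30, 0.27 and 7.70 in DP1, DP2 and DP3, and 1.79, 7.49 and 3.24 in LG1, LG2 and LG3. DP1 and DP2 were below all other libraries, whereas DP3 lay among the LL libraries in FPKM and below them after scaling. PTHLH was called lower in DP than in LL at -2.95 (standard error 0.666, adjusted p = 0.0046). The value was -3.70 with DP3 left out, -2.51 with DP1 or DP2 left out and -1.94 without scaling, and it was called in each. In LG against LL it was -2.03 (adjusted p = 0.0290), and this was not called without scaling (adjusted p = 0.211), with a pseudocount of 0.1 (adjusted p = 0.0799), without the filter (adjusted p = 0.0581), or with LL1, LG1 or LG3 left out (adjusted p = 0.106, 0.0961 and 0.0778). In LG against DP it was 0.92 (95% confidence interval -0.57 to 2.41, adjusted p = 0.309), but with DP3 left out it was 1.69 (adjusted p = 0.0261) and was called.

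By the SD of the log2 level, the spread of PTHLH was wider than that of TRPV6 in each stage. By highest over lowest FPKM it was not wider in LG, at 4.18 against 4.74 for TRPV6. In DP the highest level of PTHLH was 28.5 times its lowest, with an SD of 1.39 (log2) that exceeded that of 99.4% of genes, and the SD was 0.77 in both LL and LG. DP3, the only DP library with a high PTHLH level, was also the one with the highest fibroblast, endothelial and milk protein sums. The basal and myoepithelial markers differed among themselves. ACTA2 had 203 FPKM in DP3 against 52.8 and 46.0 in DP1 and DP2, and MYH11 was also highest in DP3. KRT5, KRT14 and the sum of the list were highest in DP2, TP63 was highest in DP1, and OXTR was lowest in DP3. The part of these markers in the level of PTHLH was not tested. DP3 was also the highest DP library for TRPV6, TRPV5, ATP2B2, ORAI1 and STIM1, and the lowest for ATP2C2, ATP2B1 and ATP2C1.

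The order of the levels differed between the stages. In LL it ran from ATP2C2 (mean 85.5 FPKM) over ORAI1 (18.1), PTHLH (8.95) and ATP2C1 (7.94) to ATP2B1 (2.79), ATP2B2 (2.30), STIM1 (2.19) and TRPV6 (1.47). The libraries of ORAI1, PTHLH and ATP2C1 overlapped from one to the next in this order, as did those from ATP2B1 to TRPV6. In DP it ran from TRPV6 (64.7) over ATP2C1 (21.8), ATP2B1 (13.9), ORAI1 (6.17), STIM1 (5.26), PTHLH (2.76), TRPV5 (2.19) and ATP2B2 (1.62) to ATP2C2 (0.827). TRPV6, ATP2C1 and ATP2B1 each lay apart from the next gene in this order, and from ORAI1 to ATP2B2 each overlapped with the next, while ATP2B2 and ATP2C2 did not overlap. In LG it ran from ATP2C1 (21.1) over ORAI1 (16.7), ATP2B1 (11.7), ATP2C2 (9.52), PTHLH (4.17), STIM1 (3.07) and ATP2B2 (1.44) to TRPV6 (1.203), and only STIM1 and ATP2B2 were neighbours that did not overlap. TRPV5 followed TRPV6 in LL and LG, and CASR came last in every stage. The place of ATP2B2 depends on the fixed amounts, since less these it would lie below ATP2C2 in every DP library, and its mean below that of TRPV6 in LL and LG. The place of STIM1 in LL depends on them too. Less these it would be at 0.73, 0.97 and 1.07 FPKM in LL1, LL2 and LL3, below TRPV6 in each.

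The wider calcium pathway was followed as a list of 56 other genes, of which 52 were matched by symbol and 40 passed the filter. In DP against LL, 9 of the 40 were called higher and 5 lower (13.8% and 8.79% of all genes), with a median log2 fold change of -0.18 against 0.00 over all genes tested. In LG against LL, 3 were called higher and 4 lower (10.7% and 6.61%), with a median of -0.24 against 0.02, and in LG against DP, 2 were called higher and 4 lower (6.37% and 6.88%), with a median of -0.14 against 0.01. Without scaling, the calls were 21 higher and 1 lower, 13 higher and 2 lower, and 2 higher and 9 lower in the same order, where 54.3% and 2.51%, 45.6% and 2.35%, and 4.86% and 10.7% of all genes were called. In all, 18 genes of the list were called in at least 1 comparison.

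Among calcium entry genes (11 tested), ORAI3, a relative of ORAI1, had 0.08 to 0.16 FPKM in LL, 4.22 to 4.71 in DP, and 1.91 to 2.54 FPKM in LG. Its stages did not overlap, and its log2 fold change was 1.70 in DP against LL and 1.196 in LG against LL. Both were called, but ORAI3 was under 0.5 FPKM in all LL libraries and passed the filter only through the stages where it was high. TRPV2, another channel of the TRPV family, was called higher in DP against LL (1.11) and lower in LG against DP (-1.43). PIEZO1, a channel opened by stretch, and SARAF, which shuts store-operated entry off, were called lower in DP against LL (-1.25 and -1.07), but stood at 0.04 and 0.31 without scaling. STIM2, the relative of STIM1, was called lower in LG against LL at -1.08, and was at -0.09 without scaling.

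Of the 5 pumps and exchangers tested, ATP2B4, another plasma membrane pump, was called higher in DP against LL (1.60) and in LG against LL (1.61). It had 0.07 to 0.14 FPKM in LL, 2.83 to 5.62 in DP, and 2.91 to 3.60 FPKM in LG, so it too passed the filter only through the stages where it was high. ATP2B4 was below ATP2B2 in every LL library and above it in every DP and LG library. ATP2A2, the pump of the endoplasmic reticulum, was called lower in LG against LL at -1.08, and was at 0.03 without scaling. The release channels ITPR1 and ITPR3, which open to inositol trisphosphate, were called higher in DP against LL (1.25 and 1.43), out of 3 release channels tested. Of all genes tested, 13.8% were called higher there. ITPR1 had 2.35 to 3.15 FPKM in LL, 12.2 to 29.5 in DP, and 7.20 to 11.9 FPKM in LG, and the stages did not overlap in FPKM.

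The 5 mitochondrial uptake genes were all tested. MCUB, which dampens the mitochondrial calcium channel, was called higher in DP against LL (2.07) and lower in LG against DP (-1.13), and the channel gene MCU was called higher in LG against DP (1.19). MCU had 1.84 to 2.40 FPKM in LL, 3.53 to 5.97 in DP, and 8.62 to 11.99 FPKM in LG. SMDT1, a further part of that channel, was called lower in DP against LL at -1.16, and was at 0.13 without scaling; its values in the table lie on a line with those of a neighbouring gene, as do those of CRACR2B, another gene of the list.

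In the Golgi list, 2 of 4 genes were called lower in DP against LL, where 8.79% of all genes tested were. NUCB2, which encodes a calcium-binding protein, had 37.6 to 52.7 FPKM in LL, 8.37 to 16.3 in DP, and 12.01 to 18.6 FPKM in LG. LL lay above the other stages in every library, and NUCB2 was called lower in DP against LL (-3.27) and in LG against LL (-2.71), also without scaling (-1.93 and -1.57). SDF4, a calcium-binding protein of the Golgi lumen, was called lower in DP against LL at -1.43, and was at -0.04 without scaling. Of the 5 calcium-binding genes tested, 0 were called in any comparison. Of all genes tested, 13.8% were called higher and 8.79% lower in DP against LL. These shares were 10.7% and 6.61% in LG against LL and 6.37% and 6.88% in LG against DP.

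Among calcium hormones and receptors (7 tested), the stanniocalcins STC1 and STC2 were highest in DP. STC2 had 3.88, 2.65 and 2.14 FPKM in LL1, LL2 and LL3, 13.7, 35.0 and 31.3 in DP1, DP2 and DP3, and 0.02, 0.06 and 0.24 in LG1, LG2 and LG3. Its stages did not overlap, and it was called in all comparisons, with 1.55 (log2) for DP against LL, -2.51 for LG against LL and -4.05 for LG against DP. STC1 had 0.17 to 0.26 FPKM in LL, 1.87 to 4.59 in DP, and 0.11 to 0.32 FPKM in LG, so it passed the filter through DP alone and had to be higher there, and its calls in DP against LL (1.29) and LG against DP (-1.52) support nothing further. RAMP1, a partner of the calcitonin family receptors, was called higher in DP against LL (1.45). VDR, the vitamin D receptor, had 3.36 to 4.40 FPKM in LL, 6.76 to 11.8 in DP, and 14.1 to 29.8 FPKM in LG, and was called higher in LG against LL (1.04) and LG against DP (1.34). Of the 9 genes called higher in DP against LL, 5 were under 0.5 FPKM in all LL libraries, so they passed the filter through other stages, ORAI3, ATP2B4, ITPR3, MCUB and STC1. The same holds for ORAI3 and ATP2B4 among the 3 called higher in LG against LL, and such calls give little support.

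The genes whose log2 levels followed those of TRPV6 most closely over the 9 libraries, which fall into the 3 stages, were ABHD2 (Pearson's r = 0.988), SERPING1 (0.985), ST6GALNAC6 (0.985), SLC25A24 (0.982) and CYTH4 (0.981). SERPING1 had 5.34 to 6.38 FPKM in LL, 44.1, 31.7 and 65.3 in DP1, DP2 and DP3 and 7.42 to 13.7 in LG, so that its order among the DP libraries was that of TRPV6. ABHD2, ST6GALNAC6 and SLC25A24 had this order in FPKM as well. CYTH4, at 11.4, 9.10 and 10.5 FPKM in DP1, DP2 and DP3, was the exception. The 5 genes were picked for their correlation with TRPV6 over these same libraries. A shared order therefore follows in large part from the choice and supports nothing further.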

How the data were processed

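Bulk RNA from mammary gland tissue of 9 goats, 3 per stage, was sequenced after TruSeq library preparation, and each library came from a separate goat. The submitters' processing notes name FastQC, Trimmomatic, HISAT2, SAMtools and HTSeq, without versions, and the study's methods name StringTie for quantification. The table that the authors deposited names no unit or genome build, and its values, given to 2 decimals, were taken to be FPKM, the measure by which the study's results filter transcripts. Its methods do not name the unit. How transcripts were summed to genes is not given in the sources used here. FPKM hold no counts, so the depth behind a value is unknown and no counting error or count test was computed. Of the value columns, 0 were left unmapped to a sample.

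Log2 values were formed after division by median-ratio factors and addition of 1. Reaching 0.5 FPKM in 3 or more libraries was required, which left 14701 genes for two-sided tests by limma 3.58.1 (R 4.3.3; linear model, contrasts, moderated variances with a trend on level), fitted once to all 9 libraries and adjusted by Benjamini-Hochberg over all of them. The script was tested on simulated data. SDs of levels are in FPKM as deposited, and other SDs are of the log2 values. The 3 libraries per stage are too few for an exact permutation test of a pair of stages to give a p below 0.1. Figures were drawn with matplotlib 3.10.9.

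The 10 genes were named whatever their result, genes of the pathway list when called in any comparison, and for TRPV6 the 5 tested genes with a symbol and the highest Pearson correlation, leaving out genes whose values are linked to those of a neighbour. The members and lists were chosen with earlier results of these data known. Genes counted as linked when a line plus the fixed amounts left no residual above 1% of the range among the 8 next neighbours on the same strand, and 1510 of 15945 genes searched were linked. Of the pathway list, CYP27B1, CYP24A1, CALCA and GNAQ were not matched by symbol, nor were the muscle markers MYH1, MYH2 and MYH7. Alternatives covered the scaling, pseudocount, filter, libraries in the fit, replicate number, trend, call rule and each library left out, and, chosen after seeing the data, the fixed amounts.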

Additional observations from a re-analysis of the deposited data

How the results depend on the processing

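The counts of the 10 calcium genes called stayed within 1.5 times their values under every alternative, at 5 to 7 for DP against LL (6 in the main analysis), 3 to 6 for LG against LL (4) and 3 to 5 for LG against DP (4). The genes behind these counts did change. In LG against LL, PTHLH, ATP2B2, ATP2C2 and ORAI1 were called lower in the main analysis. Without scaling, only ATP2C2 was called lower there, and ATP2C1 and ATP2B1 were called higher. In DP against LL without scaling, ATP2C1 and ATP2B1 were also called higher and ATP2B2 was not called. LG against DP kept the same genes without scaling. Counts of the 40 pathway genes tested moved more. For DP against LL, LG against LL and LG against DP they were 14, 7 and 6, and became 22, 15 and 11 without scaling, and 26, 20 and 19 with the adjusted p alone, which 56.9%, 50.2% and 34.8% of all genes passed. A pseudocount of 0.1 gave 10 in LG against DP. Taking the fixed amounts off all genes that reached them in every library, an alternative chosen after seeing the data, gave 12 in LG against LL (4 higher and 8 lower), and in DP against LL 21 (10 higher and 11 lower, from 9 and 5). Of all genes, 14.8% were then called lower in DP against LL and 9.74% in LG against LL, from 8.79% and 6.61%. With the adjusted p alone more genes can pass by construction, and for the others the cause was not tested. With single libraries left out, the counts were 5 to 6, 3 to 4 and 3 to 4 for the 10 genes and 12 to 17, 6 to 8 and 5 to 7 for the pathway list. The SD of TRPV6 in DP was 1.03 without scaling, 0.98 with quantile normalization and 1.05 with a pseudocount of 0.1, and 0.71 to 1.45 with single DP libraries left out.

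Log2 fold changes of the 9 genes tested changed sign as follows. Without scaling, TRPV5 in LG against LL was 0.00465, STIM1 was 0.97 in DP against LL and 0.36 in LG against LL, and for LG against DP ATP2B2 was -0.10 and ATP2C1 -0.0544, the latter also at -0.0283 with quantile normalization. With only the stages compared in the fit, ATP2B1 in LG against DP was 0.0152. With the amounts taken off all genes, ATP2B1 was 0.0524 and ATP2B2 -0.0302 in LG against DP, ATP2C1 was -0.29 in DP against LL and -0.0544 in LG against LL, and STIM1 was 0.11 in DP against LL. With the amounts taken off ATP2B2 alone, it was -0.0421 in LG against DP. With single libraries left out, LG against DP ran from -0.0894 to 0.0854 for ATP2B1 and from -0.0617 to 0.13 for ATP2B2, and ATP2C1 in DP against LL from -0.0744 to 0.10. None of these was called in the main analysis, and the cause was not tested. Of the pathway genes called, SARAF (0.31), PIEZO1 (0.04) and SMDT1 (0.13) in DP against LL and ATP2A2 (0.03) in LG against LL changed sign without scaling. Of the values of the 9 genes tested, 194 kept direction and call under the other alternatives, 7 changed sign, 7 lost a call and 4 gained one. With a library left out 223 kept both, 7 changed sign, 3 lost a call and 1 gained one.

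Each library came from a separate goat, so the replicate numbers do not pair goats. Correlations of the deviations of same-numbered libraries were -0.11 to 0.20. The best match had the same number for DP1 and DP3 against LL, for LG1 against LL, and for LG1 and LG3 against DP. It had another number in the remaining cases. With 3 libraries per stage, this cannot show whether same-numbered libraries share anything else. With the replicate block the counts were 6, 4 and 4 for the 10 genes and 14, 7 and 6 for the pathway list. With 3 goats per stage and no read counts, levels near 0, such as those of CASR and TRPV5, have no stated precision. The fold changes of low genes rest on the pseudocount.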
